A study of Homo sapiens with 8 samples.

Results

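Levels of the genes of the Fanconi anaemia pathway, homologous recombination and the DNA damage checkpoint were examined in MCF10A, an immortal but not tumorigenic line of human breast epithelium, and in a derivative that the labels call NOTCH1. The set was a list of 43 gene symbols, and a member was kept where a row of both deposited tables carried its symbol alone. That held for 41 of 43 members, among 43241 genes kept in both tables. RAD54B and ATRIP had rows joined with a neighbouring gene (FSBP and TREX1) and were left out. RNA sequencing covered 8 samples in 4 groups of 2. Cells of each line had received, over 3 days, either 30 µM ginkgolic acid, a compound known to block the attachment of SUMO to proteins, or the solvent DMSO. Per the labels, NOTCH1 cells are MCF10A cells in which the intracellular domain of that receptor is overexpressed. Neither the promoter nor the clonality of the derivative is given in the sources used here, and the labels do not say whether the 2 samples of a group were separate cultures.

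The Fanconi anaemia pathway repairs crosslinks between DNA strands. A core complex of FANC proteins, with the ubiquitin-conjugating enzyme UBE2T, attaches ubiquitin to the FANCD2 and FANCI pair (the ID complex), which then recruits nucleases and recombination factors. Homologous recombination resects broken ends, uses BRCA2 and its partners to start strand exchange, and copies a sister chromatid, so it works in S and G2 phase. The kinases ATM and ATR sense breaks and stalled forks and hold the cell cycle. Many genes of these pathways are transcribed mainly in cycling cells.

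The deposited tables hold 1 FPKM value (fragments mapped, scaled for transcript length and library size) for each gene and group. No value therefore has a replicate error, no test could be run, and how deeply each sample was sequenced is unknown. Ratios are log2 of ginkgolic acid over DMSO with no pseudocount. To be called measured, a gene had to reach 1 FPKM in one of the groups compared. It was called higher or lower where the groups stood 2-fold or more apart, that is, with a log2 ratio of 1 or more in size. All 41 members were measured in both lines. Genes that reached 1 FPKM in every group compared are called expressed throughout, which held for 41 members in MCF10A and for 40 in the other line, RAD54L being the exception. The 2 tables were normalized separately, so levels set side by side across lines carry an unknown factor. In bulk RNA, a smaller share of cells that express a gene and less RNA per cell cannot be told apart.

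NOTCH1 itself was at 5.03 FPKM in the DMSO group labelled NOTCH1 and at 11.4 FPKM in that of MCF10A. With ginkgolic acid these levels were 12.4 and 6.18 FPKM. Overexpression was thus not seen with DMSO. The label speaks of the intracellular domain, however, the values are of the whole gene, and the lines were normalized separately. The label could not be checked, so the line is called NOTCH1-labelled here. Of 10 mammary epithelial markers, 7 had a row of their own in the MCF10A table and 9 in the other, and all of these lay at 5.68 FPKM or above in every group. Markers of fibroblasts, immune and endothelial cells had medians between 0.303 and 3.60 FPKM, and none was listed at 0. Their summed levels with ginkgolic acid and with DMSO were 23.1 and 30.7 FPKM for 6 fibroblast genes in MCF10A and 43.1 and 73.1 in the NOTCH1-labelled line, where DCN alone reached 63.4 FPKM with DMSO. For 5 immune genes the sums lay between 10.7 and 16.9 FPKM, and for 4 endothelial genes between 2.89 and 10.9, over the 4 groups. Some markers of cycling cells were higher with ginkgolic acid, those of mitosis above all. MKI67, which marks cycling cells, was at 8.83 FPKM under ginkgolic acid and 2.46 under DMSO in MCF10A, and at 40.1 and 4.52 in the NOTCH1-labelled line. A list of mitosis and G2 phase had 23 measured genes, of which 22 passed 2-fold upward in MCF10A and 23 did in the NOTCH1-labelled line, with median log2 ratios of 1.98 and 4.25. Genes of DNA replication had medians of −0.11 and 1.18, with 14 of 30 and 28 of 31 above 0. In both lines ORC1 passed the 1 FPKM minimum through the ginkgolic acid group alone. TK1 and GINS2 did so in the NOTCH1-labelled line. Such ratios could only be above 0. PCNA, the replication clamp, named after its values were seen, had the lowest MCF10A ratio of the replication list, −1.18. It was at 25.2 and 57.1 FPKM in MCF10A and at 27.8 and 30.3 in the NOTCH1-labelled line. The part of these shifts in the ratios of the repair genes was not tested.

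Promoter sequences are shown for the members at both ends of the response in the NOTCH1-labelled line, 2 at the top and 2 at the bottom, to set the letters before their start sites side by side. Both groups had to reach 1 FPKM and a RefSeq window had to be at hand. They are RefSeq windows on GRCh38.p14, a build other than that of the tables, and run 5′ to 3′ from 250 bases before the start site to 30 bases from it. Capitals mark matches, on either strand, to an E2F-type element (TTTNNCGC), the CCAAT box (CCAAT) or the cell cycle homology region (TTTGAA or TTCGAA). RAD51AP1 lies on the plus strand at chr12:4538640-4538919 and BLM on the plus strand at chr15:90717096-90717375. TOPBP1 lies on the minus strand at chr3:133661912-133662191 and XRCC2 on the minus strand at chr7:152676112-152676391.
RAD51AP1: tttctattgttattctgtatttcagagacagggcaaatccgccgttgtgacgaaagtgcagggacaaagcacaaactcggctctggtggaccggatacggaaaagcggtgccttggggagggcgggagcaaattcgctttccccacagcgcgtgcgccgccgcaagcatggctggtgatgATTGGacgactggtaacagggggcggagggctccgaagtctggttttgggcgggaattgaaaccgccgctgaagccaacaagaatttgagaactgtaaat
BLM: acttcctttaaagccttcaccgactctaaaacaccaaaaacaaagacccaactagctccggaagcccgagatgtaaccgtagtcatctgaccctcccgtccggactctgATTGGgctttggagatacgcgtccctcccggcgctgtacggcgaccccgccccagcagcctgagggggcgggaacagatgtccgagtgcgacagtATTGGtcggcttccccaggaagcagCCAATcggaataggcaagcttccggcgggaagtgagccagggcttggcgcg
TOPBP1: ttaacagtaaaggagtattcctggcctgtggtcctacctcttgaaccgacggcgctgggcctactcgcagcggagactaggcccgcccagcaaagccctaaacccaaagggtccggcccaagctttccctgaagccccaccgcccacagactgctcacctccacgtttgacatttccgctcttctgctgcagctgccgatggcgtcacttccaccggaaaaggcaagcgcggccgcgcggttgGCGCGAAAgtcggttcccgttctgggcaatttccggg
XRCC2: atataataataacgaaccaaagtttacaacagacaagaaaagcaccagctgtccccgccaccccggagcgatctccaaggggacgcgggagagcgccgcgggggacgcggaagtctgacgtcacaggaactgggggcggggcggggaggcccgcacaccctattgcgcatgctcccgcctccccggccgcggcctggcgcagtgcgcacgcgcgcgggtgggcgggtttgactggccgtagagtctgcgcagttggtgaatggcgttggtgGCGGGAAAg
BLM held 3 CCAAT boxes and RAD51AP1 held 1, whereas TOPBP1 and XRCC2 each held 1 E2F-type match and no CCAAT box. None of the 4 windows held the cell cycle homology region.

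Over the 38 members with a window of 300 bases in the RefSeq table (FANCI, NBN and DNA2 had none), 9 held the E2F-type element, or 23.7%, against 6.9% of 27305 promoters of that length. The CCAAT box was in 19 members, or 50.0%, against 35.7%, and the cell cycle homology region in 5, or 13.2%, against 16.6%. Among the 18 members with a window that were 2-fold or more above DMSO in the NOTCH1-labelled line, 3 held the E2F-type element, 7 the CCAAT box and 3 the cell cycle homology region, and among the other 20 members 6, 12 and 2 did. A match describes letters only and is not evidence that a factor binds.

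In MCF10A, 8 of 41 members were, with ginkgolic acid, higher by the 2-fold rule (19.5%) and 1 lower (2.44%). Of all 17791 measured genes, 24.2% were higher and 15.4% lower by that rule. Over genes expressed throughout, as all 41 members were, these shares were 11.7% and 14.3%. The share of members called higher thus lay between the 2 backgrounds, and that of members called lower was under both. The MCF10A calls changed when 1 FPKM was added to each value. Then 4 members were higher and 0 lower, as BRCA1, BRCA2, EXO1, FANCC and MUS81 came to under 2-fold. Of these, BRCA2 and FANCC had been 2.40-fold and 2.19-fold higher, at DMSO levels of 1.10 and 2.23 FPKM. The members had a median log2 ratio of 0.41, from −1.03 for MUS81 to 1.58 for EME1, and 29 of 41 were above 0. Above 0 were also 9264 of the 17791 measured genes and 5851 of the 13152 expressed throughout. The median of all measured genes was 0.06, and −0.11 over genes expressed throughout.

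In the NOTCH1-labelled line, 20 of 41 members were higher by the same rule (48.8%) and 0 were lower. Of all 19619 measured genes, 18.9% were higher and 19.0% lower. Over genes expressed throughout, 15.6% were higher and 9.26% lower, where 19 of 40 members (47.5%) were higher. The median log2 ratio of the members was 0.84, from −0.74 for TOPBP1 to 3.44 for RAD51AP1, with 32 of 41 above 0. Above 0 were also 10229 of the 19619 measured genes and 8216 of the 14489 expressed throughout. For all measured genes the median was 0.06, and 0.14 for those expressed throughout. FANCC, UBE2T, BRCA1, BRCA2, EXO1 and EME1 were 2-fold or more above DMSO in both lines, which is 6 of the 8 members called in MCF10A and 6 of the 20 (30.0%) called in the NOTCH1-labelled line. Over the 15582 genes measured in both lines, 803 were called higher in both, 24.0% of those called in MCF10A and 31.0% of those called in the NOTCH1-labelled line. Over genes expressed throughout these shares were 33.7% and 24.4%. The overlap was not tested. The comparisons of the lines share no samples.

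**Figure D1:**
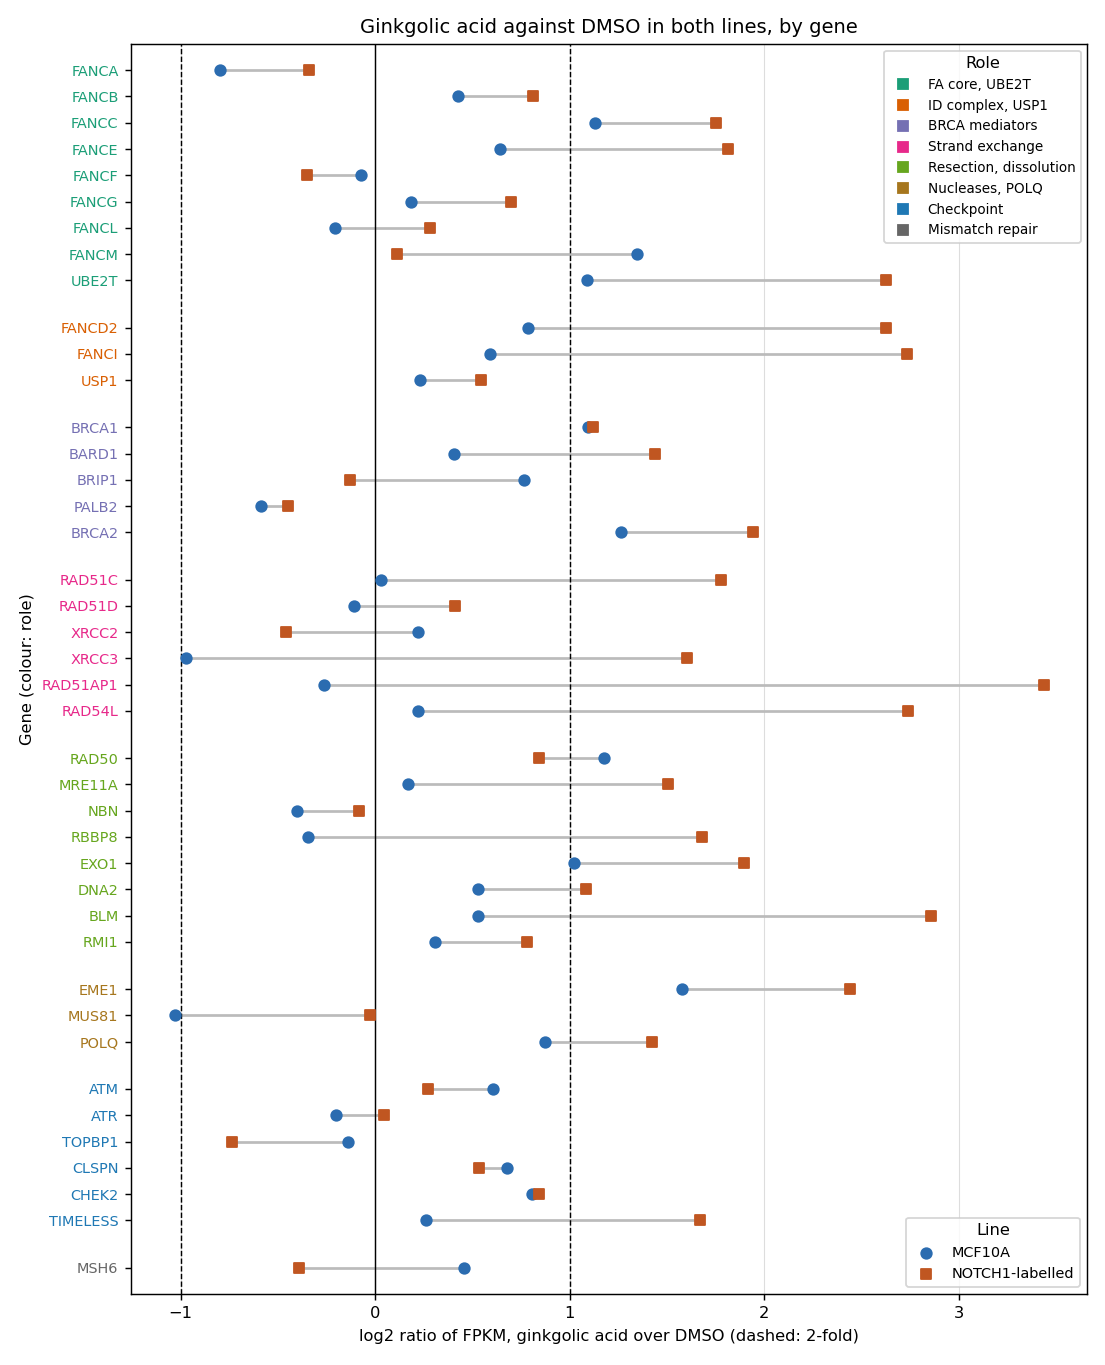
log2 ratio of FPKM, ginkgolic acid over DMSO, for each of 41 genes (rows, grouped and coloured by role) in MCF10A (circles) and the NOTCH1-labelled line (squares), with 2-fold dashed. In the NOTCH1-labelled line 20 genes lie beyond 2-fold higher and 0 beyond 2-fold lower, and in MCF10A 8 and 1.

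**Figure D2:**
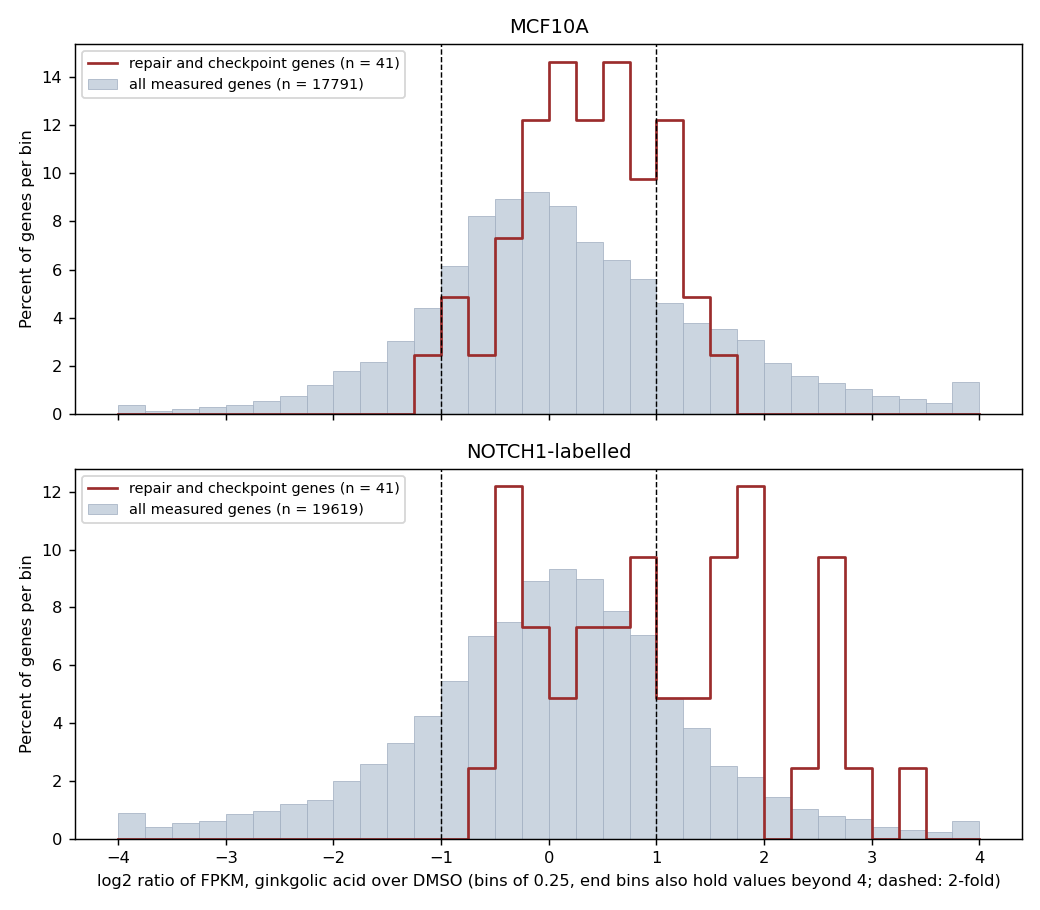
Percent of genes per bin of log2 ratio, ginkgolic acid over DMSO, for all measured genes (bars) and the 41 members (line) in each line of cells, with 2-fold dashed. The members' median is 0.41 against 0.06 for all genes in MCF10A, and 0.84 against 0.06 in the NOTCH1-labelled line.

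The substrate pair of the Fanconi pathway stood far apart between treatments in the NOTCH1-labelled line. FANCD2, which carries the ubiquitin mark (chromosome 3, 10068097 to 10149915, hg19), was at 23.0 FPKM under ginkgolic acid and 3.72 under DMSO in that line, and at 6.72 and 3.90 in MCF10A. Its partner FANCI (chromosome 15, 89787179 to 89878092) was at 73.3 and 11.02 FPKM in the NOTCH1-labelled line and at 22.8 and 15.2 in MCF10A. The log2 ratios of FANCD2 were 2.63 and 0.78, and those of FANCI 2.73 and 0.59, so both passed 2-fold in the NOTCH1-labelled line and neither did in MCF10A. USP1, the protease that removes the mark, was at 36.2 FPKM under ginkgolic acid and 24.8 under DMSO in the NOTCH1-labelled line and at 24.2 and 20.6 in MCF10A. Its 1.46-fold and 1.17-fold ratios stayed under 2-fold in both lines.

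Among the 9 genes of the core complex and its conjugating enzyme, 3 were 2-fold or more above DMSO in each line and 0 lower. Their medians were 0.43 in MCF10A and 0.70 in the NOTCH1-labelled line. For this and the other roles below, the shares of all measured genes called higher were 24.2% in MCF10A and 18.9% in the NOTCH1-labelled line. UBE2T, the ubiquitin-conjugating enzyme for FANCD2 and FANCI (chromosome 1, 202300784 to 202311124 in the MCF10A table), was at 64.0 FPKM under ginkgolic acid and 10.3 under DMSO in the NOTCH1-labelled line. In MCF10A it was at 29.3 and 13.8 FPKM, so it was 6.18-fold and 2.13-fold higher. FANCC, a core subunit, was at 5.50 and 1.63 FPKM in the NOTCH1-labelled line and at 4.89 and 2.23 in MCF10A. FANCE, the subunit that contacts FANCD2, was at 14.7 and 4.18 FPKM in the NOTCH1-labelled line and at 7.91 and 5.08 in MCF10A, beyond 2-fold only in the first (log2 ratios 1.81 and 0.64).

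FANCM, the helicase-like protein that anchors the core complex to DNA (chromosome 14, 45605142 to 45670093), had the reverse order. It was at 7.23 FPKM under ginkgolic acid and 2.84 under DMSO in MCF10A, and at 8.98 and 8.30 in the NOTCH1-labelled line. Its level was low in the MCF10A DMSO group and between 7.23 and 8.98 FPKM in the other 3 groups. FANCL, the ubiquitin ligase subunit, differed by less than 1.5-fold between treatments in either line, at 18.8 and 21.6 FPKM in MCF10A and 26.6 and 21.9 in the NOTCH1-labelled line. The core subunits FANCA and FANCF had log2 ratios below 0 in both lines, −0.80 and −0.07 in MCF10A and −0.34 and −0.35 in the NOTCH1-labelled line. FANCB and FANCG had ratios of 0.43 and 0.18 in MCF10A and 0.81 and 0.70 in the other line. The core subunits therefore did not share a direction.

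Of the 5 BRCA proteins and partners, 2 were 2-fold or more above DMSO in MCF10A and 3 in the NOTCH1-labelled line. BRCA1, a ubiquitin ligase that directs break ends to recombination (chromosome 17, 41196311 to 41322290), was at 5.98 FPKM under ginkgolic acid and 2.80 under DMSO in MCF10A. In the NOTCH1-labelled line it was at 10.2 and 4.71 FPKM, so its fold was nearly the same in both, 2.13 and 2.17. BRCA2, a mediator of strand exchange (chromosome 13, 32889610 to 32973805), was at 2.63 and 1.10 FPKM in MCF10A and at 6.40 and 1.66 in the NOTCH1-labelled line. BARD1, the obligate partner of BRCA1, was at 25.6 and 9.43 FPKM in the NOTCH1-labelled line and at 44.3 and 33.5 in MCF10A, with both MCF10A levels above both of the other line.

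PALB2 and BRIP1 did not reach 2-fold in either line. PALB2, which links BRCA1 to BRCA2, was lower with ginkgolic acid in each line by less than 2-fold, at 6.93 and 10.4 FPKM in MCF10A and 7.99 and 10.9 in the NOTCH1-labelled line. BRIP1, a helicase bound to BRCA1, was at 7.83 and 4.60 FPKM in MCF10A and at 6.24 and 6.83 in the NOTCH1-labelled line. Within this group of 5, the NOTCH1-labelled ratios ran from −0.45 for PALB2 to 1.94 for BRCA2.

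The strand exchange factors had a median difference between the lines of 2.13 on the log2 scale. None of the 6 was beyond 2-fold in either direction in MCF10A, with a median log2 ratio of −0.04, and 4 were 2-fold or more above DMSO in the NOTCH1-labelled line, with a median of 1.69. RAD51AP1, which stimulates strand pairing (chromosome 12, 4647949 to 4669214 in the MCF10A table), was at 25.8 FPKM under ginkgolic acid and 2.38 under DMSO in the NOTCH1-labelled line, a ratio of 10.8. In MCF10A it was at 5.51 and 6.60 FPKM. The NOTCH1-labelled line thus had the lowest and the highest of the 4 levels. RAD54L, a motor protein of the SWI/SNF family (chromosome 1, 46713359 to 46769280), was at 4.49 and 0.673 FPKM in the NOTCH1-labelled line and at 1.31 and 1.13 in MCF10A. It passed the 1 FPKM minimum in the NOTCH1-labelled line through the ginkgolic acid group alone.

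RAD51C, a mediator of strand exchange and resolution (chromosome 17, 56769933 to 56811703), was at 62.2 FPKM under ginkgolic acid and 18.1 under DMSO in the NOTCH1-labelled line, and at 22.7 and 22.2 in MCF10A. XRCC3, a partner of RAD51C, was at 8.06 and 2.66 FPKM in the NOTCH1-labelled line and at 2.62 and 5.13 in MCF10A, so it lay on opposite sides. Its row spans chromosome 14 from 104019757 to 104181841, a stretch that also holds rows of KLC1, BAG5 and other genes, and reads over shared bases may count for either. RAD51D and XRCC2, which share another complex with RAD51C, stayed under 2-fold, at 1.84 and 1.39 FPKM and at 1.97 and 2.71 FPKM in the NOTCH1-labelled line, with log2 ratios of −0.11 and 0.22 in MCF10A. These 4 genes were therefore split in the NOTCH1-labelled line, RAD51C and XRCC3 beyond 2-fold and RAD51D and XRCC2 within it.

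Of 8 genes of end resection and of the dissolution of joined molecules, 2 were higher in MCF10A and 5 in the NOTCH1-labelled line. Their medians were 0.42 and 1.30. The MCF10A count was near the share of all measured genes called higher (24.2%), and the NOTCH1-labelled count was above it (18.9%). Neither was tested. RBBP8, which encodes CtIP and starts resection (chromosome 18, 20279443 to 20606451), was at 148 FPKM under ginkgolic acid and 46.3 under DMSO in the NOTCH1-labelled line, and at 29.9 and 38.0 in MCF10A. The nuclease gene EXO1 (chromosome 1, 242011268 to 242058450) was at 36.8 and 9.87 FPKM in the NOTCH1-labelled line and at 8.67 and 4.26 in MCF10A. DNA2, the other long-range nuclease, was at 11.1 and 5.25 FPKM and at 8.11 and 5.62. EXO1 was thus beyond 2-fold in both lines, and RBBP8 and DNA2 in the NOTCH1-labelled line alone by the size rule.

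The MRE11 complex, which binds and trims break ends, had no shared pattern. RAD50, its clamp (chromosome 5, 131877135 to 131999964), was the member with the highest level, at 199 FPKM under ginkgolic acid and 87.9 under DMSO in MCF10A and at 197 and 110 in the NOTCH1-labelled line. The nuclease gene MRE11A was at 102 and 36.0 FPKM in the NOTCH1-labelled line and at 76.2 and 67.7 in MCF10A. NBN, which connects the complex to ATM, was at 45.0 and 47.6 FPKM in the NOTCH1-labelled line and at 53.6 and 70.8 in MCF10A. So RAD50 passed 2-fold in MCF10A, MRE11A in the NOTCH1-labelled line and NBN in neither.

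BLM, the helicase that dissolves recombination intermediates (chromosome 15, 91260557 to 91358859), was at 8.05 FPKM under ginkgolic acid and 1.11 under DMSO in the NOTCH1-labelled line, 7.26-fold apart. In MCF10A it was at 3.93 and 2.73 FPKM, inside the range of the other line. RMI1, which acts with BLM, had log2 ratios of 0.78 in the NOTCH1-labelled line and 0.31 in MCF10A. GENCODE release 29 places small RNA genes inside 8 members, FANCD2, RAD51D, MRE11A, RBBP8, BLM, RMI1, ATM and MSH6, and reads of these cannot be separated from the host in the tables. Without these 8, the NOTCH1-labelled line had 16 of 33 members 2-fold or more above DMSO and MCF10A had 8.

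The nuclease pair that cuts branched DNA was not of 1 direction in MCF10A. EME1, the regulatory subunit (chromosome 17, 48450580 to 48475249), had the highest ratio of all members in MCF10A, at 3.70 FPKM under ginkgolic acid and 1.24 under DMSO, and was at 12.7 and 2.34 in the NOTCH1-labelled line. MUS81, the catalytic subunit (chromosome 11, 65590492 to 65641063), was the 1 member 2-fold or more below DMSO in MCF10A, at 12.3 and 25.2 FPKM, and was at 15.9 and 16.2 in the NOTCH1-labelled line. Its log2 ratio of −1.03 lay just past the 2-fold line and came to under 2-fold once ratios were centred on the median gene. POLQ, the polymerase of microhomology-mediated end joining, was at 13.0 and 4.87 FPKM in the NOTCH1-labelled line and at 5.30 and 2.90 in MCF10A.

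Of 6 checkpoint genes, 0 were beyond 2-fold in MCF10A and 1 in the NOTCH1-labelled line, a share (16.7%) near that of all genes (18.9%), with medians of 0.43 and 0.40. The apical kinase gene ATM was at 82.3 FPKM under ginkgolic acid and 54.1 under DMSO in MCF10A and at 71.7 and 59.3 in the NOTCH1-labelled line. ATR, the kinase of stalled forks, was at 10.8 and 12.4 FPKM and at 14.2 and 13.7. The effector kinase gene CHEK2 had like ratios in both lines, at 23.2 and 13.2 FPKM in MCF10A and 24.3 and 13.5 in the NOTCH1-labelled line. TOPBP1, the activator of ATR, had the lowest NOTCH1-labelled ratio of all members, at 30.7 and 51.1 FPKM, and was at 30.3 and 33.4 in MCF10A. CLSPN, the adaptor that passes the signal to CHK1, had log2 ratios of 0.68 and 0.53. TIMELESS, a fork protection factor (chromosome 12, 56810902 to 56843187), was the member beyond 2-fold, at 8.63 and 2.71 FPKM in the NOTCH1-labelled line and at 4.62 and 3.86 in MCF10A. MSH6, a mismatch sensor, was at 53.1 and 38.7 FPKM in MCF10A and 31.1 and 40.8 in the NOTCH1-labelled line.

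**Figure D3:**
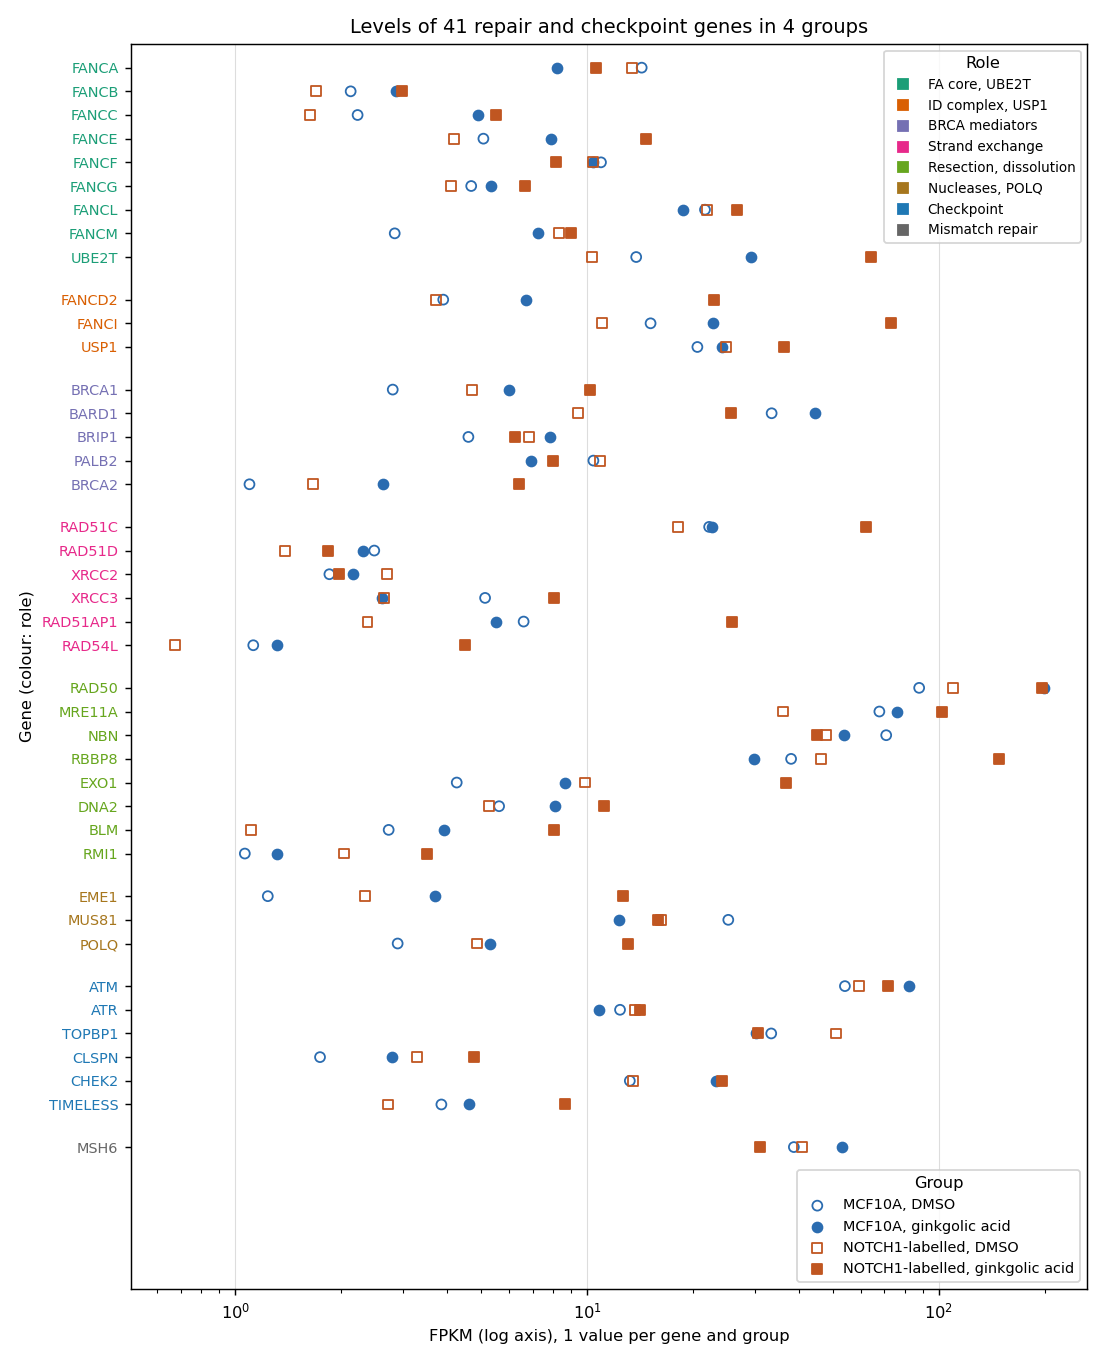
FPKM (log axis) of each of 41 genes (rows, coloured by role) in the 4 groups, 1 value per gene and group, with open symbols for DMSO and filled symbols for ginkgolic acid. RAD51AP1 spans 2.38 to 25.8 FPKM within the NOTCH1-labelled line, whereas ATR stays between 10.8 and 14.2 in all 4 groups.

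To ask whether the lines responded differently, the MCF10A log2 ratio of each member was subtracted from its NOTCH1-labelled ratio. The difference was at least 1 for 14 of 41 members (34.1%) and at most −1 for 1, FANCM at −1.24. Over 15582 genes, 21.5% had a difference of at least 1 and 22.5% of at most −1. Over genes expressed throughout these shares were 23.3% and 11.3%, where 13 of 40 members were higher. RAD51AP1 had a difference of 3.70, XRCC3 2.57, RAD54L 2.52, BLM 2.33, FANCI 2.14 and RBBP8 2.03. The members' median difference was 0.52, and that of all genes 0.22, or 0.39 for genes expressed throughout. Centred on the latter, the members' median difference was 0.12, and 10 members lay at least 1 above and 4 at least 1 below, in place of 14 and 1. The shares of all genes under this centring were not worked out, so the centred counts stand without a background. No interaction could be fitted with 1 value per group, so none of these differences was tested.

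The starting levels were set side by side across the tables. With DMSO, FANCM and EXO1 (2 members) were 2-fold or more above their MCF10A level in the NOTCH1-labelled line, and 3 members 2-fold or more below it, BARD1, RAD51AP1 and BLM, with log2 ratios of −1.83, −1.47 and −1.30. For all genes these shares were 25.8% and 10.3%, and for genes expressed throughout 10.9% and 8.86%. The median over the members was −0.07, against 0.20 for all genes and 0.02 for those expressed throughout.

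**Figure D4:**
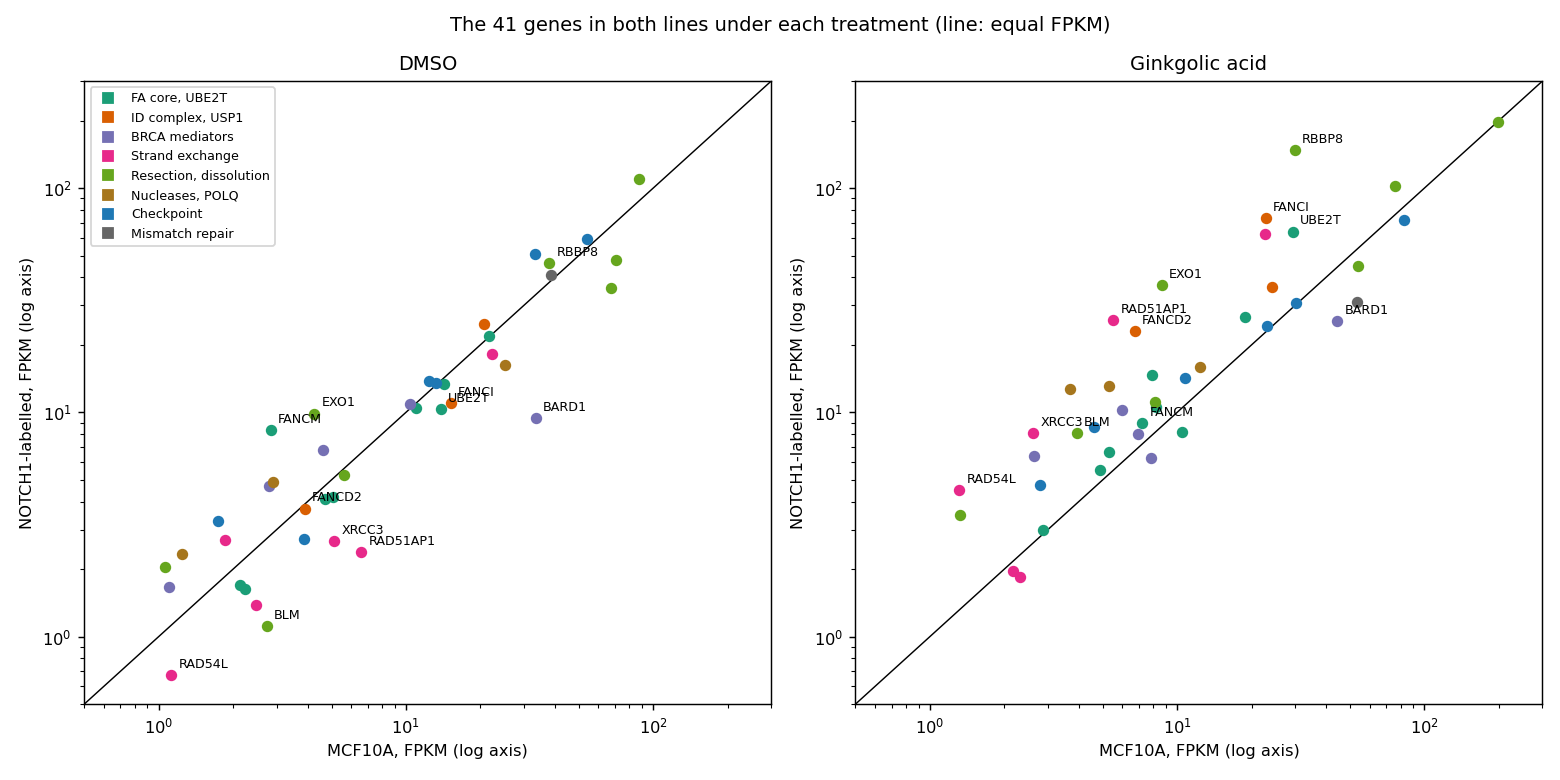
FPKM of the 41 genes in MCF10A (horizontal) and the NOTCH1-labelled line (vertical), both on log axes, under DMSO (left) and ginkgolic acid (right), coloured by role, with the line of equal FPKM. With DMSO 21 genes lie below the line, and with ginkgolic acid 32 lie above it. The cell lines were normalized separately. Of all genes expressed throughout, 6791 of 13249 had the higher DMSO level in the NOTCH1-labelled line. The ratio of ginkgolic acid to DMSO was larger in that line for 7914 of 11855 such genes. Levels of all genes with ginkgolic acid were not compared.

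A further 39 genes of recombination and the Fanconi pathway were listed, of which 35 were measured in MCF10A, with 4 called higher and 4 lower and a median log2 ratio of −0.09. In the NOTCH1-labelled line 37 were measured, with 10 higher and 2 lower and a median of 0.45. The shares called higher, 11.4% in MCF10A and 27.0% in the NOTCH1-labelled line, stood beside 24.2% and 18.9% of all measured genes. The 4 genes of this list named here had its largest ratios. RMI2, a partner of BLM and RMI1, was at 4.80 FPKM under ginkgolic acid and 0.623 under DMSO in the NOTCH1-labelled line and at 1.24 and 1.22 in MCF10A. SWI5 and SFR1, which form a complex that assists strand exchange, had log2 ratios of 2.66 and 1.39 in the NOTCH1-labelled line and 0.58 and 2.34 in MCF10A. C17orf53 was at 1.05 FPKM under ginkgolic acid and 0.188 under DMSO in the NOTCH1-labelled line, and under 1 FPKM in both groups of MCF10A. RMI2 and C17orf53 passed the 1 FPKM minimum in the NOTCH1-labelled line through the ginkgolic acid group alone, so their ratios there could only be above 0.

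Of 15 further checkpoint genes, 3 were 2-fold or more above DMSO and 0 lower in MCF10A, with a median of −0.12. In the NOTCH1-labelled line 5 were higher and 1 lower, with a median of 0.52. The shares called higher, 20.0% and 33.3%, stood beside 24.2% and 18.9% of all measured genes. MDC1, the scaffold at marked chromatin, was at 4.67 FPKM under ginkgolic acid and 1.02 under DMSO in MCF10A and at 7.20 and 1.10 in the NOTCH1-labelled line. CDC25C, the phosphatase that the checkpoint restrains before mitosis, was at 12.3 and 3.54 FPKM and at 26.9 and 1.69. WEE1, the kinase that opposes it, was at 47.8 and 14.7 FPKM in MCF10A and at 42.0 and 177 in the NOTCH1-labelled line, so its high value was that of NOTCH1-labelled DMSO cells. Genes of DNA replication, whose expression also peaks around S phase, had medians of −0.11 in MCF10A and 1.18 in the NOTCH1-labelled line. Called higher were 4 of 30 (13.3%) and 18 of 31 (58.1%), beside 24.2% and 18.9% of all measured genes. These counts include ORC1 in both lines and TK1 and GINS2 in the NOTCH1-labelled line. Their DMSO levels there were under 1 FPKM, so their ratios could only be above 0. The members' NOTCH1-labelled median of 0.84 thus lay under that of replication genes and far under that of mitotic genes, at 4.25. In MCF10A the members' median of 0.41 lay above that of replication genes and under that of mitotic genes, at 1.98. These are descriptions with no test of the differences.

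**Figure D5:**
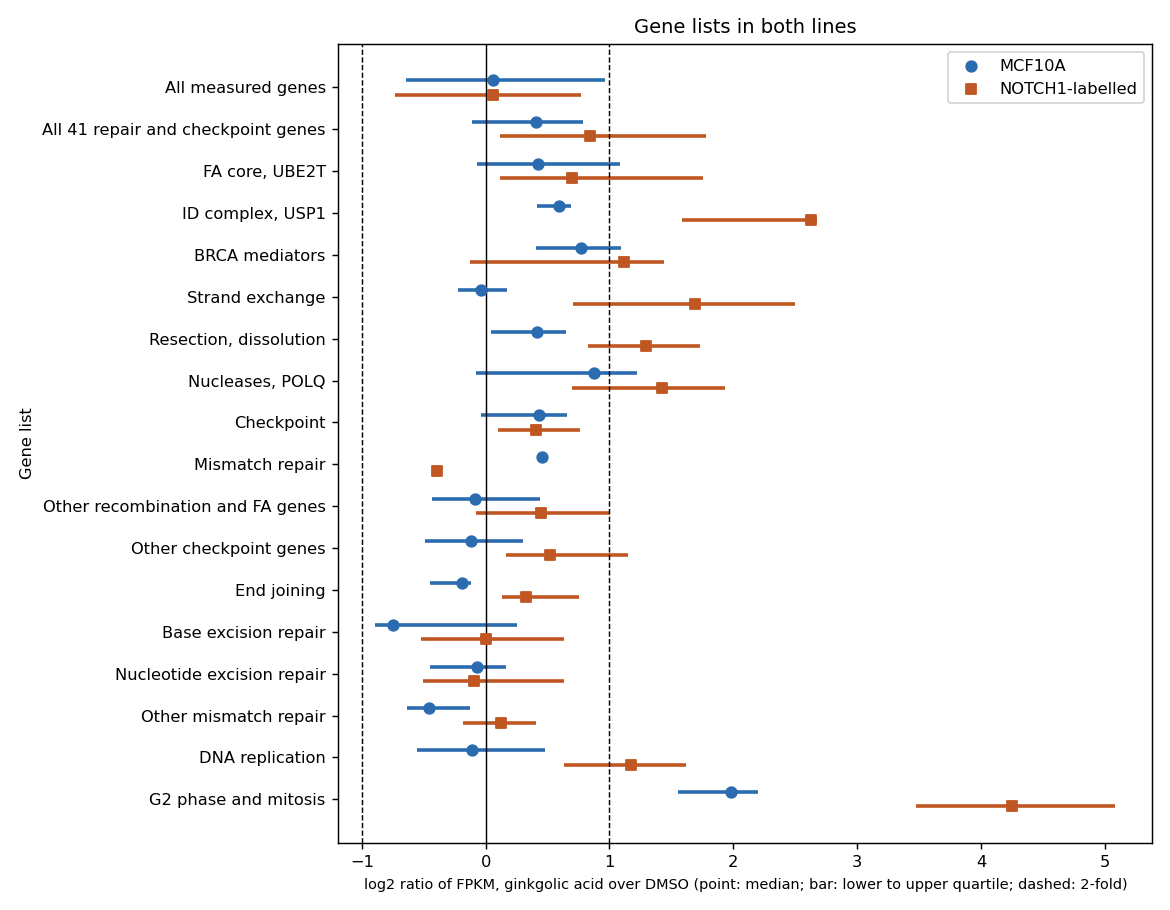
Median (point) and quartiles (bar) of the log2 ratio, ginkgolic acid over DMSO, for all measured genes, the 41 members, their role groups and other gene lists, in MCF10A (circles) and the NOTCH1-labelled line (squares). The strand exchange factors have medians of −0.04 and 1.69, and the checkpoint genes 0.43 and 0.40.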

How the data were processed

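RNA was extracted with RNeasy columns and ScriptSeq Complete Gold libraries were made, per the labels' protocols. Per the submitters' processing notes, Bowtie2 2.1.0, TopHat2 2.0.8b, Cuffdiff 2.1.1 and Cufflinks 2.1.1 were run on GRCh37 (hg19). The annotation, the strand setting and how Cuffdiff combined samples: not given in the sources used here. For each line, the authors deposited 1 table with 1 FPKM value per gene and group, per the file headers. Left out were rows without a gene name, joined rows, repeated symbols, loci shorter than 200 bases and unplaced contigs, which kept 43299 and 43325 genes. With 1 value per group no test was run, and a 2-fold rule was used. Members, lists and rules were chosen with earlier results of these data known. Named were all members, MKI67 and NOTCH1. Per other list, at most 4 genes were named, from those with the largest ratios beyond 2-fold in either line. PCNA, DCN, ORC1, TK1 and GINS2 were named outside this rule. Of 41 loci, 26 overlap other rows, whose reads may be shared. The scripts were tested on simulated data. Python 3.11.15, numpy 2.4.6, pandas 2.3.3 and matplotlib 3.10.9 were used. Alternatives are listed in the closing section.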

Additional observations from a re-analysis of the deposited data

Results flagged for a closer look

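XRCC3 lay on opposite sides in the lines, at a log2 ratio of −0.97 in MCF10A and 1.60 in the NOTCH1-labelled line, a difference of 2.57 that was not tested. The joined row of RAD54B, a motor protein related to RAD54L, and FSBP was left out of the comparisons. It was at 21.3 FPKM under ginkgolic acid and 6.17 under DMSO in MCF10A, a log2 ratio of 1.78, and at 15.6 and 8.16 FPKM in the NOTCH1-labelled line, a log2 ratio of 0.94. The table does not say which of the genes the reads came from.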

How the results depend on the processing

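No paired analysis was possible because the tables hold 1 value per gene and group, and for the same reason no replicate could be left out. In MCF10A the count of members higher by the fold, 8 as reported, was 5 with a minimum of 5 FPKM, 4 with a pseudocount of 1 FPKM (BRCA1, BRCA2, EXO1 and FANCC came to under 2-fold) and 16 with a fold of 1.5. The count lower, 1 as reported, was 0 with the pseudocount, 0 when centred on the median gene and 4 with a fold of 1.5. In the NOTCH1-labelled line the count higher, 20 as reported, was 18 with the pseudocount or centring (BRCA1 and DNA2 came to under 2-fold), and the count lower was 1 with a fold of 1.5. For the difference of the responses, the count lower, 1 as reported, was 0 with the pseudocount, 4 with centring and 5 with a fold of 1.5, and the count higher, 14 as reported, was 10 with centring. For DMSO levels across the tables, a fold of 1.5 gave 9 higher and 8 lower members. The medians kept their sign under every setting, including those added after seeing the data (joined rows, members without small RNAs, at least 1 FPKM in every group compared). Low FPKM values rest on few fragments, and the tables do not give how many.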

Other observations

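Other lists of DNA repair genes had lower medians than the members in both lines, as did the further recombination and Fanconi genes, at −0.09 and 0.45. Base excision repair genes, which replace damaged bases, had a median log2 ratio of −0.74 in MCF10A, with 1 of 17 called higher and 4 lower, and 0.00 in the NOTCH1-labelled line, with 4 higher and 0 lower. NEIL3, a glycosylase that also acts on crosslinks, was at 9.13 FPKM under ginkgolic acid and 1.70 under DMSO in the NOTCH1-labelled line and at 5.51 and 3.14 in MCF10A. NEIL2, of the same list, had log2 ratios of −0.76 in the NOTCH1-labelled line and −1.65 in MCF10A. Nucleotide excision repair genes had medians of −0.07 and −0.10. Of 16 such genes, 0 were higher and 2 lower in MCF10A, and 3 were higher and 2 lower in the NOTCH1-labelled line. DDB2, a sensor of ultraviolet damage and p53 target, was at 32.1 and 6.98 FPKM in the NOTCH1-labelled line and at 18.4 and 12.1 in MCF10A. UVSSA, of the same list, had log2 ratios of −1.86 in the NOTCH1-labelled line and 0.49 in MCF10A. End joining genes had medians of −0.19 and 0.33, and mismatch repair genes other than MSH6 −0.45 and 0.12. Called higher were 5.88% of base excision and 0% of nucleotide excision genes in MCF10A, and 23.5% and 18.8% in the NOTCH1-labelled line. For all measured genes these shares were 24.2% in MCF10A and 18.9% in the NOTCH1-labelled line. The differences between lists were not tested.

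Each table is made of 2 blocks of rows, each in chromosome order, and nothing in the files says what separates them. The first block held 2962 of 17791 measured genes in MCF10A and 2203 of 19619 in the NOTCH1-labelled line. Its median absolute log2 ratio was 1.43 against 0.64 in the rest in MCF10A, and 1.39 against 0.66 in the NOTCH1-labelled line. FANCM and UBE2T lay in the first block in MCF10A. In the NOTCH1-labelled line 12 members did, FANCC, FANCE, UBE2T, FANCD2, FANCI, BARD1, RAD51C, RAD51AP1, RAD54L, EXO1, BLM and TIMELESS. The blocks were used for no call.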
